A study of Mus musculus with 8 samples.

Results

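Penk, Areg, Il1r2, Fgl2 and Il1rl1 encode secreted peptides and proteins and interleukin receptors that T cells in tissues are known to use. These 5 genes were followed among the 37411 genes of the count table. Penk, Areg and Il1r2 were chosen by their measured CPM (library-scaled read counts) in these same libraries, where earlier results had shown them higher in small intestine than in spleen, and Fgl2 and Il1rl1 were added for their roles beside them. The difference between tissues is therefore given here as a description with no test. The hairpin and the host were not used to choose the genes and were tested. The hairpin value of Penk was, however, known when it was chosen and is no independent evidence.

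The RNA came from CD4+ effector T cells, about 10000 sorted cells per sample, recovered 6 weeks after transfer into Rag1-/- mice on the C57BL/6 background. Rag1-/- mice make no mature T or B cells of their own but keep their other blood and tissue cells. The transferred cells carried the retroviral vector LMPd with a short hairpin that targets the drug efflux pump Mdr1, whose gene is Abcb1a (shMdr1), or the control hairpin against CD8 (shCD8). They were taken from small intestine lamina propria or from spleen, of hosts that lacked (Asbt-/-) or had (Asbt+/+) the gene Slc10a2, which encodes the bile acid transporter of the ileum. The deletion was in the host and was not stated for the T cells. The groups were shMdr1 and shCD8 cells from small intestine and from spleen, each in Asbt-/- and in Asbt+/+ hosts, which gave 8 libraries with 1 library per combination. Each level of a factor thus held 4 libraries, which stood as replicates over the other 2 factors. The labels do not say which libraries came from separate animals, so p-values reflect how much these libraries vary, part of which may be technical. The animals' age and sex were not given.

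Penk encodes proenkephalin, a precursor that prohormone convertases cut into enkephalins, the opioid peptides that act on delta and mu opioid receptors. Areg encodes amphiregulin, a ligand of the epidermal growth factor receptor that metalloproteases release from the cell surface, and Fgl2 encodes fibrinogen-like protein 2, which binds the inhibitory Fc receptor FcgammaRIIB when secreted. Il1r2 encodes the decoy receptor for interleukin 1, which binds the cytokine without signalling. Il1rl1 encodes ST2, the receptor for the alarmin interleukin 33, and is known from regulatory T cells of tissues and from T helper type 2 cells. Amphiregulin made by ST2-positive regulatory T cells is known for its part in tissue repair.

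Library totals ran from 1685225 to 2767105 counts. The shCD8 small intestine Asbt+/+ library stood apart, with 8456 genes detected, against 11345 to 13184 in the other 7, and with a mean Spearman correlation of 0.696 with the other libraries. Abcb1a, the hairpin's target, had 40.4 CPM in shMdr1 and 91.0 CPM in shCD8 small intestine cells of Asbt-/- hosts, 22.2 and 29.7 CPM in spleen cells of Asbt-/- hosts, and 18.7 and 40.8 CPM in spleen cells of Asbt+/+ hosts. The small intestine pair of Asbt+/+ hosts had 14.8 CPM (23 counts) in the library labelled shMdr1 and 8.28 CPM (21 counts) in the library labelled shCD8. That ratio of 1.78 lies on the other side of 1 than in the other 3 pairs, and its counting interval of 0.943 to 3.39 holds 1. For Cd8a, the control hairpin's target, that pair had 150 counts (96.3 CPM) under label shMdr1 and 0 under shCD8, the direction these labels give. Spleen pairs had 31 Cd8a counts with shMdr1 and 7 with shCD8 in Asbt+/+ hosts, and 0 with both hairpins in Asbt-/- hosts. The Asbt-/- small intestine pair had 70 (shMdr1) and 57 (shCD8), a ratio of 1.22 whose interval of 0.847 to 1.76 holds 1. The hairpin log2 fold change of Cd8a was 1.60 ± 1.43 (edgeR adjusted p = 0.9995). Whether the labels of the small intestine Asbt+/+ pair are correct was not tested. Directions that use the small intestine Asbt+/+ pair are also given without it, a choice made after seeing the data. Abcb1a was lower with shMdr1 in 3 of 4 matched pairs, and its hairpin log2 fold change of -0.75 ± 0.61 had an edgeR quasi-likelihood adjusted p of 0.9995. All 11 markers of CD4 T cells had counts in every library, summing to 6552 to 10404 CPM in small intestine and 6621 to 7740 CPM in spleen.

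All 5 genes were among the 10000 genes that passed the filter on low counts. CPM are scaled with TMM factors, and 95% exact Poisson intervals of single values cover counting error only, since PCR copies were not told apart by molecular identifiers. CPM are not divided by gene length, so levels are compared within a gene and never between genes. In bulk RNA, fewer cells of a type and less RNA per cell cannot be told apart.

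Penk was highest in the small intestine and lowest in shMdr1 cells of the spleen. In small intestine it had 63.8 CPM in shMdr1 and 104 CPM in shCD8 cells of Asbt-/- hosts, and 142 CPM in the library labelled shMdr1 and 364 CPM in shCD8 cells of Asbt+/+ hosts. In spleen it had 4.31 CPM (interval 1.73 to 8.88, from 7 counts) in shMdr1 and 26.3 CPM in shCD8 cells of Asbt-/- hosts, and 15.8 and 42.6 CPM in shMdr1 and shCD8 cells of Asbt+/+ hosts. Every small intestine library was above every spleen library. The means were 169 ± 134 CPM in small intestine and 22.3 ± 16.3 CPM in spleen (SD, n = 4 each), and the log2 difference in the fit was 2.96 ± 0.34, or 7.79-fold. Across the 8 libraries the highest level was 84.5 times the lowest. Each of the 7 neighbours in the order of the levels differed beyond counting error.

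Areg and Il1r2 showed the same split by tissue. Areg had 160.5 CPM in shMdr1 and 246 CPM in shCD8 small intestine cells of Asbt-/- hosts, and 411 CPM in the library labelled shMdr1 and 190.1 CPM in shCD8 small intestine cells of Asbt+/+ hosts. In spleen Areg had 36.9 and 53.6 CPM in shMdr1 and shCD8 cells of Asbt-/- hosts, and 32.5 and 80.8 CPM in shMdr1 and shCD8 cells of Asbt+/+ hosts. The lowest small intestine level was 1.99 times the highest spleen level. Areg averaged 252 ± 112 CPM in small intestine and 51.0 ± 21.9 CPM in spleen (SD, n = 4 each), a log2 difference of 2.34 ± 0.37, or 5.07-fold. The lowest 2 libraries, both shMdr1 spleen, did not differ beyond counting error. Without the library labelled shMdr1 small intestine Asbt+/+, which had the highest level, the log2 difference was 1.87.

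Il1r2 had 118 CPM in shMdr1 and 372 CPM in shCD8 small intestine cells of Asbt-/- hosts, and 289 CPM in the library labelled shMdr1 and 324 CPM in shCD8 small intestine cells of Asbt+/+ hosts. In spleen it had 33.9 and 31.1 CPM in shMdr1 and shCD8 cells of Asbt-/- hosts, and 27.5 and 53.3 CPM in shMdr1 and shCD8 cells of Asbt+/+ hosts. The shMdr1 small intestine library of Asbt-/- hosts lay below the other 3, yet still 2.21 times above the highest spleen library. Il1r2 averaged 276 ± 111 CPM in small intestine and 36.4 ± 11.5 CPM in spleen (SD, n = 4 each), a log2 difference of 2.88 ± 0.33, or 7.34-fold. Of the 7 neighbours in its order, 3 did not differ beyond counting error.

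Il1r2 is also expressed by neutrophils, and markers of these cells had counts in both tissues. The 12 neutrophil markers summed to 10.7 to 193 CPM in small intestine and 859 to 7581 CPM in spleen. Of these markers, 7 were tested and 5 were lower in small intestine by the edgeR adjusted p, while the neutrophil receptor gene Cxcr2 had no count in any library. Macrophage markers summed to 211 to 389 CPM in small intestine and 73.2 to 342 CPM in spleen. Markers of stroma and endothelium summed to 31.9 to 79.0 CPM in small intestine and 12.9 to 39.3 CPM in spleen. The part of neutrophils, macrophages, stroma and endothelium in the levels of the 5 genes was not tested.

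**Figure D1:**
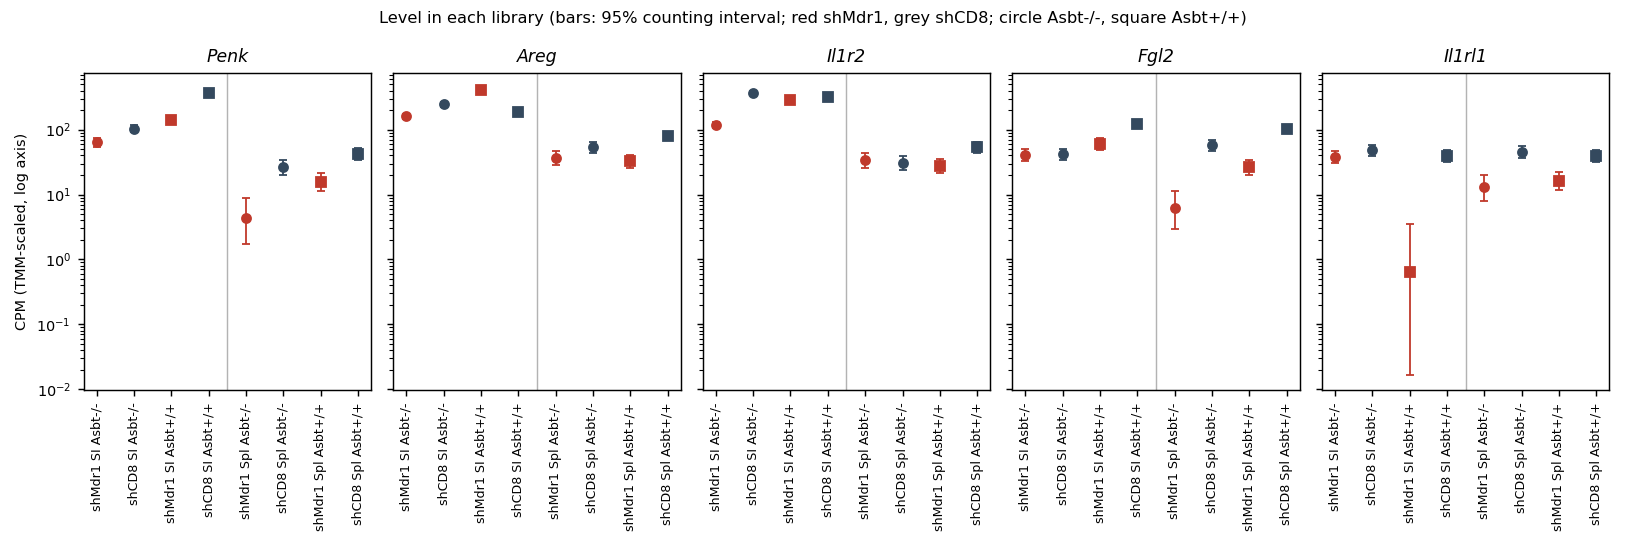
TMM-scaled CPM of the 5 genes on a log axis in each of the 8 libraries, with small intestine (SI) left of spleen (Spl), red for shMdr1 and grey for shCD8, circles for Asbt-/- and squares for Asbt+/+ hosts, and bars for 95% counting intervals. Penk, Areg and Il1r2 lie higher in all small intestine libraries than in any spleen library, and Il1rl1 has a single count in the library labelled shMdr1 small intestine Asbt+/+.

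Fgl2 and Il1rl1 overlapped between the tissues. Fgl2 had 40.8 CPM in shMdr1 and 41.9 CPM in shCD8 small intestine cells of Asbt-/- hosts, and 60.3 CPM in the library labelled shMdr1 and 121 CPM in shCD8 small intestine cells of Asbt+/+ hosts. In spleen it had 6.16 CPM (interval 2.95 to 11.3, from 10 counts) and 57.5 CPM in shMdr1 and shCD8 cells of Asbt-/- hosts, and 26.2 and 101 CPM in shMdr1 and shCD8 cells of Asbt+/+ hosts. Its log2 difference between small intestine and spleen was 0.85 ± 0.48. Small intestine was the higher tissue in 3 of 4 matched pairs, and shCD8 cells of Asbt-/- hosts had less in small intestine than in spleen. Of the 7 neighbours in its order, 2 did not differ beyond counting error.

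Il1rl1 had 38.0 CPM in shMdr1 and 47.9 CPM in shCD8 small intestine cells of Asbt-/- hosts. In the small intestine pair of Asbt+/+ hosts, it had 0.642 CPM (interval 0.0163 to 3.58, from 1 count) in the library labelled shMdr1, and 39.4 CPM in shCD8 cells. In spleen it had 12.9 and 45.5 CPM in shMdr1 and shCD8 cells of Asbt-/- hosts, and 16.2 and 39.1 CPM in shMdr1 and shCD8 cells of Asbt+/+ hosts. Its mean level was 31.5 ± 21.0 CPM in small intestine and 28.4 ± 16.3 CPM in spleen (SD, n = 4 each). The log2 difference was -0.01 ± 0.71, and 0.51 without the library that had 1 count. The highest 5 libraries, the 4 shCD8 libraries among them, stood in an order whose neighbours did not differ beyond counting error. A count per gene sums the membrane and the soluble form of ST2.

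The whole table sets the background for the tissue split. Of the 10000 genes tested, 339 (3.39%) were above every spleen library in every small intestine library, and Penk, Areg and Il1r2 were 3 of them, as the choice of these genes fixed. By the edgeR adjusted p, 62 genes (0.62%) differed between the tissues, 51 of them higher and 11 lower in small intestine.

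Areg and Il1r2 had the highest correlation of log2 CPM over the 8 libraries among the 10 pairs of the 5 genes, with Pearson's r = 0.94. Both genes' tissue split largely makes this value, which was 0.62 with tissue means taken off. The highest of the 10 pairs was then Penk and Fgl2, with r = 0.96. The 250 bases before the start of Areg and of Il1r2 are shown from RefSeq (GRCm38.p6), to show which letters their promoters hold. They lie at chr5:91139349-91139598 for Areg and chr1:40085843-40086092 for Il1r2, both on the plus strand. The count files use another build, mm9, so these positions are those of GRCm38.p6 only. Capitals mark motif matches, which are the cyclic AMP response element TGACGTCA and its core TGACG in Areg and the E-box CACGTG in Il1r2.
Areg: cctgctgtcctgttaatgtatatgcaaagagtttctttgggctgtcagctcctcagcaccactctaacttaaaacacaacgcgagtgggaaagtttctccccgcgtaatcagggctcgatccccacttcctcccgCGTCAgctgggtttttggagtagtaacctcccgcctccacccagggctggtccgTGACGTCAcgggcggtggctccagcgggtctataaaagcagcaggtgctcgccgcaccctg
Il1r2: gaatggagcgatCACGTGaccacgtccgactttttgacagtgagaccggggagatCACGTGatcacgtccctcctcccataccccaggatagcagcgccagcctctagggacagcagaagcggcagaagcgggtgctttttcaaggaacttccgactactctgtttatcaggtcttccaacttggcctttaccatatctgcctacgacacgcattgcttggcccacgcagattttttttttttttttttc

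A set of 7 motifs was searched on both strands of these windows. Of the 5 genes, 4 had an entry, Il1rl1 with more than 1 start, and Penk had none and was not searched. TGACGTCA began 61 bases before the start of Areg and is held by 1.55% of all 32851 promoter windows of this length. TGACG, whose 3 matches in Areg include those within TGACGTCA, is held by 17.8%. CACGTG matched 238 and 195 bases before the start of Il1r2, and 6.02% of windows hold it. The AP-1 motif TGANTCA matched once in Fgl2, 16 bases before the start, and 6.75% of windows hold it. The GATA motif AGATAA matched once in each of the Il1rl1 windows and is held by 9.99%, and TGACG matched in 1 of these windows. The NBRE motif AAAGGTCA, held by 1.34%, and the NF-kB motif, held by 1.41%, matched in none of the windows of these genes. No motif was shared by Areg and Il1r2.

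The hairpin comparison asks what Mdr1 knockdown does to T cells. Penk was lower with shMdr1 in 4 of 4 matched pairs of libraries alike in tissue and host. The shMdr1 to shCD8 ratios were 0.612 in Asbt-/- and 0.391 in Asbt+/+ small intestine, the pair in which Abcb1a was not lower with shMdr1. They were 0.164 in spleen of Asbt-/- hosts and 0.372 in spleen of Asbt+/+ hosts. All 4 counting intervals lay below 1. The log2 fold change of Penk was -1.46 ± 0.33, or 2.74-fold lower, and it did not pass the test (edgeR adjusted p = 0.9995). It was -1.52 without the library labelled shMdr1 small intestine Asbt+/+ and -1.42 without both small intestine Asbt+/+ libraries.

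No gene of the 10000 (0%) passed the edgeR adjusted p for the hairpin, while 299 had an unadjusted p under 0.05, DESeq2 called 3 and limma-voom called 0. Of all tested genes, 736 (7.36%) were lower with shMdr1 in 4 of 4 pairs, and Penk, Fgl2 and Il1rl1 were 3 of the 5. Without the small intestine pair of Asbt+/+ hosts, 1577 genes (15.8%) were lower with shMdr1 in the other 3 pairs, among them 4 of the 5, all but Il1r2. With CPM of the plain totals the share over all 4 pairs was 10.7%, and Il1r2 joined the 3.

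Fgl2 and Il1rl1 were also lower with shMdr1 in each pair, by unequal amounts. The shMdr1 to shCD8 ratio of Fgl2 was 0.974 in small intestine of Asbt-/- hosts, where the counting interval holds 1, and 0.497 in small intestine of Asbt+/+ hosts. In spleen it was 0.107 in Asbt-/- and 0.260 in Asbt+/+ hosts. The log2 fold change of Fgl2 was -1.46 ± 0.49 (edgeR adjusted p = 0.9995). Its hairpin difference was -0.53 ± 0.55 in small intestine and -2.52 ± 0.59 in spleen. The difference between these, 2.00 ± 0.79, did not pass the test (edgeR adjusted p = 1), and 0 of 10000 genes (0%) did.

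All 4 shMdr1 libraries were below all 4 shCD8 libraries for Il1rl1, the closest being 38.0 CPM in shMdr1 small intestine cells of Asbt-/- hosts and 39.1 CPM in shCD8 spleen cells of Asbt+/+ hosts. Of all tested genes, 134 (1.34%) had this order, and Il1rl1 was the 1 of the 5. Without the small intestine libraries of Asbt+/+ hosts, 534 genes (5.34%) had it, with Il1rl1 and Fgl2 among them. The Il1rl1 ratios were 0.794 in small intestine of Asbt-/- hosts, whose interval holds 1, 0.284 in spleen of Asbt-/- hosts and 0.415 in spleen of Asbt+/+ hosts. In small intestine of Asbt+/+ hosts the ratio was 0.0163 (interval 0.000408 to 0.0928), with the 1 count of the library labelled shMdr1. The log2 fold change was -1.50 ± 0.77 (edgeR adjusted p = 0.9995), and -1.004 without that library.

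Areg and Il1r2 did not hold 1 direction. Areg was lower with shMdr1 in 3 pairs, at ratios of 0.652 in small intestine of Asbt-/- hosts, 0.689 in spleen of Asbt-/- hosts and 0.402 in spleen of Asbt+/+ hosts. In small intestine of Asbt+/+ hosts the library labelled shMdr1 had 2.16 times the level of the shCD8 library. The Areg log2 fold change was -0.30 ± 0.36 (edgeR adjusted p = 0.9995), and -0.75 without the library labelled shMdr1 small intestine Asbt+/+. Il1r2 had ratios of 0.317 in small intestine of Asbt-/- hosts and 0.515 in spleen of Asbt+/+ hosts. The ratios of 0.891 in small intestine of Asbt+/+ hosts and 1.09 in spleen of Asbt-/- hosts had intervals that hold 1. Its log2 fold change was -0.65 ± 0.31 (edgeR adjusted p = 0.9995).

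**Figure D2:**
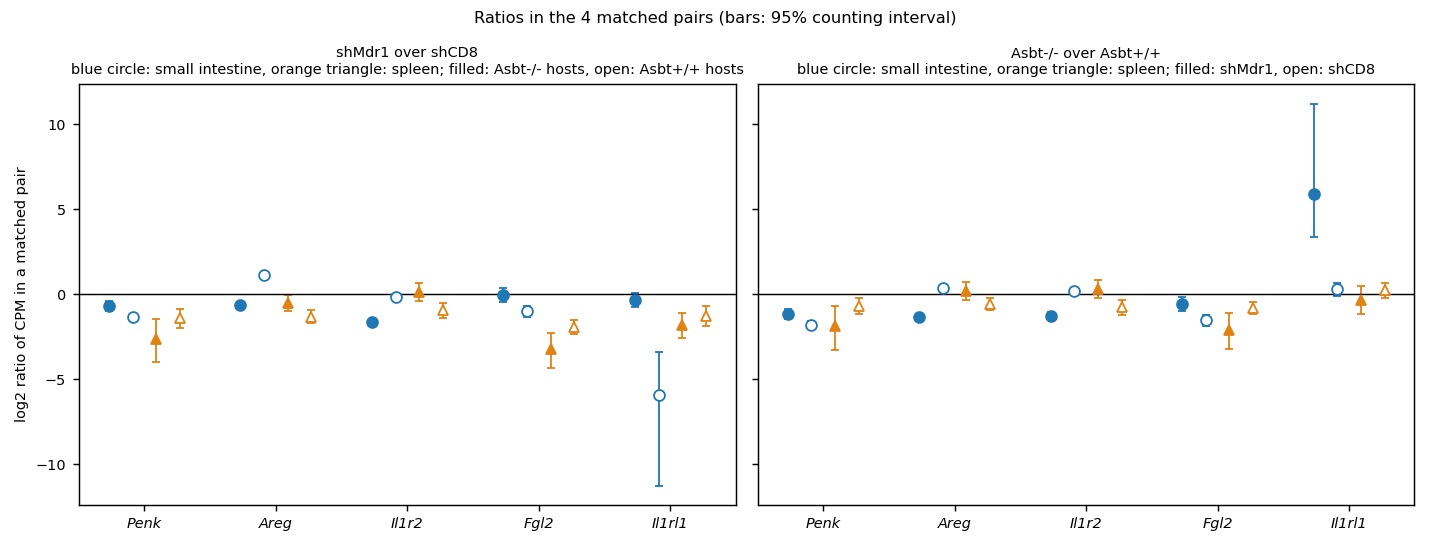
Log2 ratios of CPM of the 5 genes in the 4 matched pairs, shMdr1 over shCD8 on the left and Asbt-/- over Asbt+/+ on the right, with blue circles for small intestine, orange triangles for spleen and bars for 95% counting intervals. Penk lies below 0 in all 8 ratios, and the widest bars belong to Il1rl1 ratios that use the library with 1 count.

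The host comparison asks whether the host's Asbt changes the transferred cells. Penk was lower in cells from Asbt-/- hosts than from Asbt+/+ hosts in 4 of 4 pairs. The ratios of Asbt-/- to Asbt+/+ hosts were 0.448 for shMdr1 and 0.286 for shCD8 cells of small intestine, and 0.272 for shMdr1 and 0.619 for shCD8 cells of spleen. All 4 counting intervals lay below 1. The log2 fold change of Penk was -1.28 ± 0.32, or 2.42-fold lower, which did not pass the test (edgeR adjusted p = 0.996). No gene of the 10000 (0%) passed for the host, while 271 had an unadjusted p under 0.05, DESeq2 called 6 and limma-voom called 0.

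Fgl2 was likewise lower in Asbt-/- hosts in 4 of 4 pairs, with all counting intervals below 1. The Fgl2 ratios were 0.676 for shMdr1 and 0.345 for shCD8 cells of small intestine, and 0.235 for shMdr1 and 0.569 for shCD8 cells of spleen. Its log2 fold change was -1.04 ± 0.46 (edgeR adjusted p = 0.996). Penk and Fgl2 were 2 of the 519 genes (5.19% of all tested) that were lower in Asbt-/- hosts in each pair. The shMdr1 spleen Asbt-/- library, which had the lowest level of both genes, also had the highest share of mitochondrial counts, 26.8%. Its share of hemoglobin counts was 3.69%. In spleen the mitochondrial share split by host. The other Asbt-/- spleen library had 17.6%, and those of Asbt+/+ had 6.63% (shMdr1) and 7.33% (shCD8). Small intestine showed no such split, with 18.3% (labelled shMdr1) and 7.055% (shCD8) for Asbt+/+, and 8.625% (shMdr1) and 7.27% (shCD8) for Asbt-/-. The part of the mitochondrial and hemoglobin shares in the result was not tested. Without the shMdr1 spleen Asbt-/- library the log2 fold change of Fgl2 was -0.76 for the host and -1.08 for the hairpin.

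Areg and Il1r2 were higher in Asbt-/- hosts in 2 pairs and lower in the other 2. In small intestine, Areg had a ratio of 0.390 between Asbt-/- and Asbt+/+ hosts for shMdr1 and 1.30 for shCD8 cells. Il1r2 had ratios of 0.409 for shMdr1 and 1.15 for shCD8 cells there. In spleen, the shMdr1 ratios of 1.14 for Areg and 1.23 for Il1r2 had counting intervals that hold 1. The shCD8 ratios in spleen were 0.663 for Areg and 0.584 for Il1r2. With CPM of the plain totals, Areg was higher in 1 pair and lower in 3. The host log2 fold changes were -0.47 ± 0.36 for Areg and -0.35 ± 0.31 for Il1r2 (edgeR adjusted p = 0.996 for both). The Areg value was 0.04 without the library labelled shMdr1 small intestine Asbt+/+. Il1rl1 had a host log2 fold change of 0.89 ± 0.79 (edgeR adjusted p = 0.996), and 0.26 without the library with 1 count.

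Differences of the effects between tissues or hosts did not pass for any of the 5 genes. Between small intestine and spleen, the host effect differed by log2 values of -0.31 ± 0.65 for Penk and -0.28 ± 0.70 for Areg. The values were -0.29 ± 0.69 for Il1r2, 0.33 ± 0.78 for Fgl2 and 2.43 ± 1.81 for Il1rl1. By edgeR 0 of 10000 genes (0%) passed that test, while 431 had an unadjusted p under 0.05, DESeq2 called 22 and limma-voom called 0. Between Asbt-/- and Asbt+/+ hosts, the hairpin effect differed by -0.16 ± 0.67 for Penk and -0.57 ± 0.73 for Areg. It differed by -0.25 ± 0.66 for Il1r2, 0.06 ± 1.02 for Fgl2 and 1.48 ± 1.60 for Il1rl1. For that difference 0 of 10000 genes (0%) passed, while 119 had an unadjusted p under 0.05, DESeq2 called 0 and limma-voom called 3. Both Il1rl1 values use the library with 1 count. For the difference of the hairpin effect between tissues, 170 genes had an unadjusted p under 0.05, DESeq2 called 1 and limma-voom called 0.

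The rest of each gene's pathway was followed through 6 lists. In the opioid list of 17 genes, 7 passed the filter. The precursors Pdyn and Pnoc, the convertase Pcsk2 and the peptidases Mme and Anpep, which degrade enkephalins, had no count in any library. Neither had the receptors Oprd1, Oprk1 and Oprl1, and Oprm1 had 1. The precursor Pomc did have counts, at 0.789 to 22.7 CPM in small intestine and 6.02 to 25.0 CPM in spleen. So did the peptidase Dpp3 (5.78 to 45.0 CPM and 10.5 to 28.7 CPM) and Cpe (3.57 to 67.8 CPM and 4.58 to 16.6 CPM), small intestine first. The convertase Pcsk1 had 0 to 8.34 CPM in small intestine and 0 to 8.14 CPM in spleen. Of the 6 tested genes other than Penk, 0 passed by edgeR in any comparison. For the hairpin 5 of the 6 were below 0, with a median log2 fold change of -0.65, beside 0.09 over all tested genes, and Ogfr, which encodes an opioid growth factor receptor, was at -0.85 ± 0.39 (edgeR adjusted p = 0.9995).

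The neighbours of Areg on chromosome 5 in RefSeq (GRCm38.p6), Epgn, Ereg and Btc, which encode ligands of the same family, had no count in any library, and neither had Tgfa. Egf had 7 counts, all in spleen libraries, and did not pass the filter. Hbegf, another such ligand, had 0 to 4.39 CPM in small intestine and 0 to 10.7 CPM in spleen. Egfr, the receptor, had 1 count in each of 2 libraries and none in the others. The sheddases were measured, with Adam17, which releases amphiregulin, at 16.7 to 60.2 CPM in small intestine and 26.5 to 43.0 CPM in spleen. By edgeR, 0 of the 6 tested genes other than Areg passed in any comparison. Errfi1, which encodes an inhibitor of the receptor's signalling, had 14.4 to 78.8 CPM in small intestine and 3.35 to 20.8 CPM in spleen (log2 difference 2.89 ± 0.68, edgeR adjusted p = 0.125). It was called higher in small intestine under 2 of the 16 alternatives, DESeq2 (adjusted p = 0.00242) and edgeR with no filter (adjusted p = 0.00391), and its adjusted p ranged up to 0.655 over the 16. Adam10 had the smallest p for the host, with a log2 fold change of -1.04 ± 0.28 (edgeR adjusted p = 0.996).

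Il1r2 and Il1rl1 lie in 1 row of 6 receptor genes on chromosome 1, in the order Il1r2, Il1r1, Il1rl2, Il1rl1, Il18r1 and Il18rap in RefSeq (GRCm38.p6), and the 6 did not share 1 pattern. Il1r1, the signalling receptor for interleukin 1, had a tissue log2 difference of -0.09 ± 0.73. Il18r1 and Il18rap, the chains of the interleukin 18 receptor, had -0.18 ± 0.27 and -0.27 ± 0.31. None of these 3 passed the test (edgeR adjusted p = 0.985 for Il1r1, 0.902 for Il18r1 and 0.871 for Il18rap). Il1rl2 was low, with 0 to 9.18 CPM in small intestine and 3.08 to 8.17 CPM in spleen. Il18rap was higher with shMdr1 in 4 of 4 pairs, with a log2 fold change of 1.01 ± 0.31 that did not pass (edgeR adjusted p = 0.9995). Of the 16 tested genes of the interleukin 1 list other than Il1r2 and Il1rl1, 0 passed by edgeR in any comparison, and 7 were below 0 for the hairpin. The ligand Il33 had counts in 2 small intestine libraries, at 4.39 and 2.57 CPM, and in no spleen library. Il1b, a ligand that Il1r2 binds, had 5.14 to 68.6 CPM in small intestine and 0.430 to 4.99 CPM in spleen (log2 difference 4.22 ± 1.17, edgeR adjusted p = 0.228). Il1b was called under 2 of the 16 alternatives, DESeq2 (adjusted p = 0.00242) and edgeR with no filter (adjusted p = 0.0148), and its adjusted p ranged up to 0.814 over the 16.

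**Figure D3:**
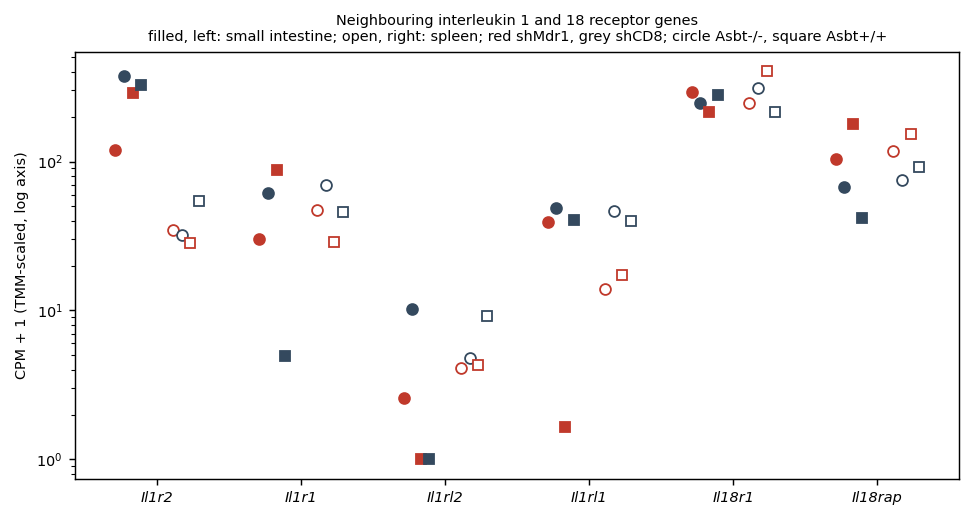
CPM + 1 on a log axis of 6 receptor genes that lie next to each other on chromosome 1, in their order along it, with filled points on the left for small intestine and open points on the right for spleen, red for shMdr1 and grey for shCD8, circles for Asbt-/- and squares for Asbt+/+ hosts. The small intestine and spleen points stand apart for Il1r2, and overlap for Il1r1, Il1rl2, Il1rl1, Il18r1 and Il18rap. CPM are not divided by gene length, so heights are not compared between genes.

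Genes for other growth and repair factors that T cells secrete rose in the small intestine in part. Of the 14 tested genes of this list other than Areg, 2 rose and 0 fell by edgeR, beside 51 of all 10000 (0.51%) that rose, and the median log2 difference was 1.13, beside -0.17 over all tested genes. The list was chosen with earlier results of these data known, so its share beside that of all genes is a description. The count of 2 was 4 by DESeq2, 4 with no filter, 3 without shCD8 small intestine Asbt+/+, and 1 without the library labelled shMdr1 small intestine Asbt+/+, any 1 of the 4 spleen libraries, or both small intestine Asbt+/+ libraries. Il17a, which encodes the cytokine interleukin 17A of T helper type 17 cells, had 545 to 2374 CPM in small intestine and 136 to 396 CPM in spleen (log2 fold change 2.43 ± 0.27, edgeR adjusted p = 0.00224). Furin, which encodes a convertase that activates transforming growth factor beta, had 173 to 311 CPM in small intestine and 58.9 to 97.3 CPM in spleen (1.55 ± 0.27, edgeR adjusted p = 0.0314). Furin kept its call in 2 of the 8 fits that left out 1 library each, while Il17a kept it in all 8. Furin's edgeR adjusted p was 0.153 with the library labelled shMdr1 small intestine Asbt+/+ left out and 0.116 with shCD8 small intestine Asbt-/- left out. Of the spleen libraries of Asbt-/- hosts, leaving out shMdr1 gave 0.0906 and leaving out shCD8 gave 0.155. Of those of Asbt+/+ hosts, leaving out shMdr1 gave 0.142 and leaving out shCD8 gave 0.171.

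For the hairpin, 10 of these 14 genes were below 0 and 0 passed by edgeR, with a median of -0.67, beside 0.09 over all tested genes. Il17a was lower with shMdr1 in 4 of 4 pairs (log2 fold change -1.22 ± 0.26, edgeR adjusted p = 0.9995), and DESeq2 called it (adjusted p = 0.0158), the 1 of 16 alternatives that did; the highest adjusted p was 1. Il22, which encodes a cytokine that acts on epithelium, was at -1.08 ± 0.30 (edgeR adjusted p = 0.9995); its reads can be shared with the near-identical gene Iltifb. For the host, 7 of 14 were below 0, and Csf2 was at -1.09 ± 0.45 (edgeR adjusted p = 0.996).

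Genes of the tissue regulatory T cell and ST2 list gave 3 that rose and 0 that fell in small intestine among the 19 tested genes other than Il1rl1 by edgeR, beside the 0.51% of all tested genes that rose. This list, too, was chosen with earlier results of these data known, so the comparison with all genes is a description. The count ranged from 0 to 7 over the 16 alternatives. It was 7 by DESeq2, 6 with no filter and 5 without shCD8 small intestine Asbt+/+, and 0 without the library labelled shMdr1 small intestine Asbt+/+. It was 1 without any 1 of the 4 spleen libraries or without both small intestine Asbt+/+ libraries, and 2 without shMdr1 small intestine Asbt-/-. The 1 gene called without both small intestine Asbt+/+ libraries was Irf4, which was not called in the fit of all 8 libraries. Ctla4, which encodes an inhibitory receptor, had 968 to 1650 CPM in small intestine and 223 to 451 CPM in spleen (log2 fold change 1.84 ± 0.24, edgeR adjusted p = 0.00625). Icos, a costimulatory receptor gene, rose by 1.55 ± 0.23 (edgeR adjusted p = 0.0131) and Tnfrsf9, another such gene, by 2.49 ± 0.39 (edgeR adjusted p = 0.0186). The median over the 19 was 0.95, beside -0.17 over all tested genes, and 6 of the 19 lay below 0. Gata3 had 26.3 to 231 CPM in small intestine and 130 to 289 CPM in spleen. Foxp3 had 0 to 44.6 CPM in small intestine and 4.99 to 28.8 CPM in spleen. Ctla4 lost its call without the library labelled shMdr1 small intestine Asbt+/+ (edgeR adjusted p = 0.0523). Without that library Icos was at 0.0805 and Tnfrsf9 at 0.0565. Among the spleen libraries, Icos was at 0.0512 with shMdr1 Asbt-/- left out, 0.105 with shCD8 Asbt-/- left out, 0.0666 with shMdr1 Asbt+/+ left out and 0.0708 with shCD8 Asbt+/+ left out. In the same order Tnfrsf9 was at 0.0770, 0.104, 0.0885 and 0.0583, and it was at 0.0904 with shMdr1 small intestine Asbt-/- left out.

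For the hairpin, 15 of the 19 were below 0 and 0 passed by edgeR, with a median of -0.47, beside 0.09 over all tested genes. Foxp3, which encodes the lineage factor of regulatory T cells, was lower with shMdr1 in 4 of 4 pairs, with a log2 fold change of -2.30 ± 0.96 (edgeR adjusted p = 0.9995). That value includes the small intestine pair of Asbt+/+ hosts, with 0 Foxp3 counts in the library labelled shMdr1 and 113 in shCD8 cells. With that pair left out, Foxp3 was still lower with shMdr1 in each pair. Gata3, a factor of T helper type 2 cells and tissue regulatory T cells, was at -1.13 ± 0.41 (edgeR adjusted p = 0.9995). Without both small intestine Asbt+/+ libraries 17 of the 19 were below 0. For the host, 7 of the 19 were below 0 with a median of 0.22, beside 0.11 over all tested genes. Of the fibrinogen-like list, Fgl1 had no count, and of the 4 tested genes other than Fgl2, namely Fcgr2b, Fcgr3, Lag3 and Tigit, 0 passed for tissue, hairpin or host by edgeR or under any of the 16 alternatives.

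**Figure D4:**
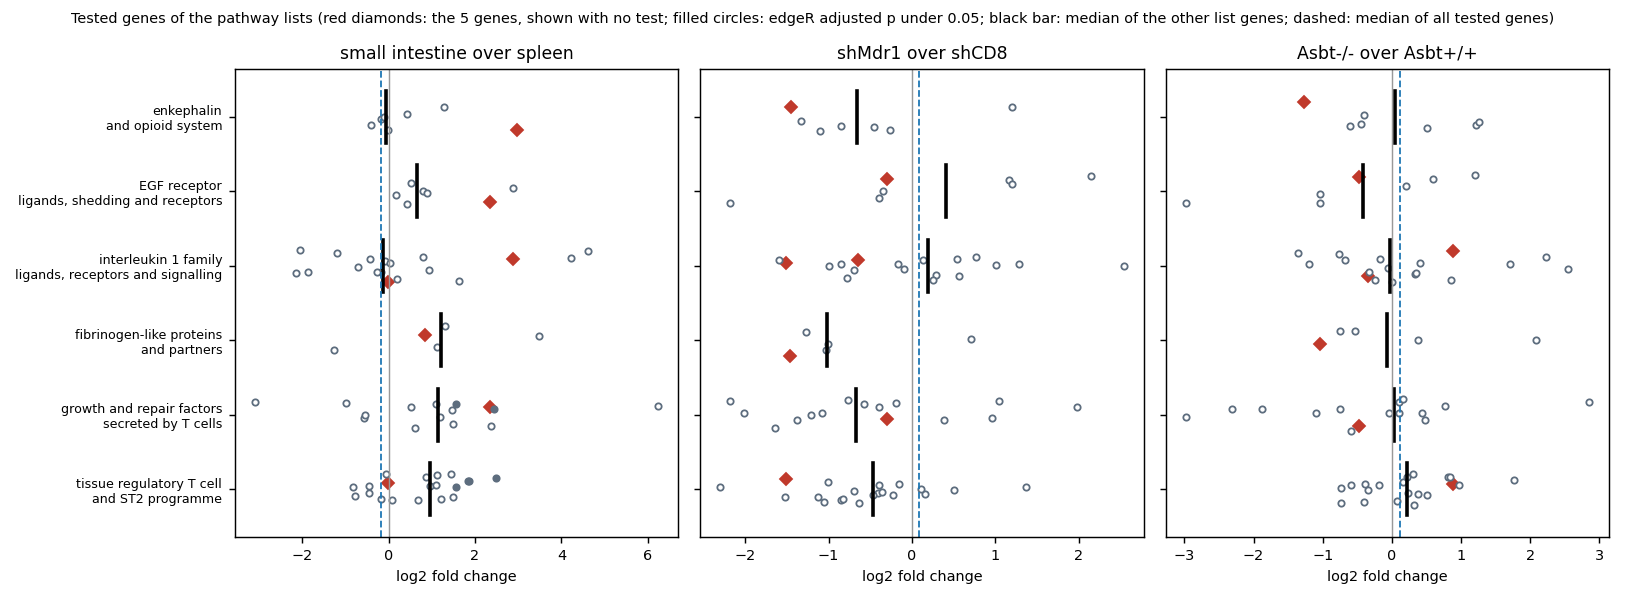
Log2 fold changes of the tested genes of the 6 lists, for small intestine over spleen, shMdr1 over shCD8 and Asbt-/- over Asbt+/+, with red diamonds for the 5 genes (shown with no test), filled circles for other genes with an edgeR adjusted p under 0.05, a black bar for the median of the other list genes and a dashed line for the median of all tested genes. Filled circles appear only for the tissue comparison, in the lists of repair factors and of the ST2 programme.

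The genes most like each of the 5 were sought among 6997 tested genes with a mean of at least 10 CPM, by Pearson's r of log2 CPM over the 8 libraries, which share tissue, depth and preparation. Il1rl1 was most like Hdhd2 (r = 0.99), Zdhhc13, Foxp3 (r = 0.97), Slc39a9 and Cd27 (r = 0.96). Foxp3 had 22.6 and 40.3 CPM in shMdr1 and shCD8 small intestine cells of Asbt-/- hosts, and 0 CPM in the library labelled shMdr1 and 44.6 CPM in shCD8 small intestine cells of Asbt+/+ hosts. In spleen Foxp3 had 6.16 and 23.0 CPM in shMdr1 and shCD8 cells of Asbt-/- hosts, and 4.99 and 28.8 CPM in shMdr1 and shCD8 cells of Asbt+/+ hosts. Il1rl1, Foxp3, Hdhd2 and Cd27 all had 0 or 1 count in the library labelled shMdr1 small intestine Asbt+/+. Without that library, over 7 libraries, the r with Il1rl1 was 0.977 for Hdhd2, 0.932 for Foxp3, 0.855 for Slc39a9, 0.851 for Cd27 and 0.801 for Zdhhc13.

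**Figure D5:**
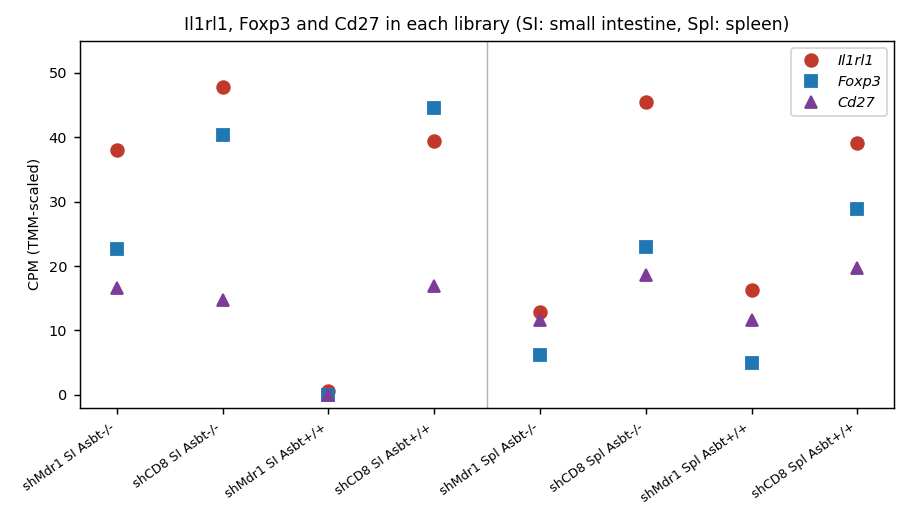
TMM-scaled CPM of Il1rl1, Foxp3 and Cd27 in each library, small intestine (SI) left of spleen (Spl). All 3 genes lie at 0 to 0.642 CPM in the library labelled shMdr1 small intestine Asbt+/+, and heights are not compared between genes.

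Penk was most like Csnk1a1, Akr1a1, Rgs1, Gm17767 and Pqlc1, with r of 0.98 for each. Areg was most like Nfkbie (r = 0.98), Dennd4a, Defa24, Lpxn and Skil. Of these, Defa24 had 11.5 to 75.7 CPM in small intestine and no count in spleen. Markers of intestinal epithelium summed to 166 CPM in the library labelled shMdr1 small intestine Asbt+/+, which had the highest Areg level. They summed to 124 CPM in shMdr1 spleen Asbt+/+, which had the lowest. The part of epithelial cells in the Areg level was not tested. Il1r2 was most like Asb2 (r = 0.97), Ints12, Ucp2, Dennd4a and Arrdc3. Fgl2 was most like Mtmr6, Ybx1, Fundc1, Nipsnap3b and Cd44, with r from 0.93 to 0.95. After the mean of each tissue was taken off, Penk was most like Dpysl2 (r = 0.99), Fundc1, Mkln1, Csnk1a1 and Gm17767. Areg was then most like Zfp280b, Ppp1r2, Mfn2, Mff and Agr2, and Il1r2 was most like Eps15, Stag2, Syap1, Fam46a and Ncoa2. Agr2 had 80.9 CPM in the library labelled shMdr1 small intestine Asbt+/+ and 0 to 20.2 CPM in the others. Fgl2 was then most like Nipsnap3b, Gm17767, Socs2, Lsm14a and Penk itself (r = 0.96), and Il1rl1 was most like Hdhd2, Foxp3, 1190002N15Rik, Cd27 and Arl4c. With tissue means kept, r with Il1rl1 over the 8 libraries was 0.90 for 1190002N15Rik and 0.83 for Arl4c. Without the library that had 1 count of Il1rl1, these fell to 0.27 for 1190002N15Rik and -0.05 for Arl4c.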

How the data were processed

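Raw read counts per gene were deposited by the authors as whole numbers, 1 column per library. Libraries were prepared, per the labels' protocols, with a SMART-Seq v4 ultra low input kit and a NEBNext Ultra II kit. The submitters' processing notes name mm9, TopHat, HTSeq and DESeq2, while their versions, the annotation and whether strand was used are not given in the sources read. Hairpins were taken from titles, because another label names the Mdr1 hairpin for all 8 libraries.

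The filterByExpr function kept 10000 genes, which held 99.52% of the counts. TMM-scaled counts were modelled by edgeR 4.0.16 in R 4.3.3 with its quasi-likelihood test, additive in tissue, hairpin and host, with a Benjamini-Hochberg threshold of 0.05. Values after ± on log2 fold changes are approximate SEs from the F statistic. Effects within tissues, and their differences, came from a fit with separate effects per tissue, and hairpin by host differences from a fit with that interaction. Scripts were tested on simulated data. Alternatives used DESeq2 1.42.0 and limma 3.58.1 (voom), other scalings and filters, no covariates, fewer libraries and a matched pair block.

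The 5 genes and the gene lists were chosen with earlier results of these data known. Named genes are the 5, list genes that passed a test or had the smallest p for hairpin or host, and the 5 genes most like each; any other named gene was chosen after its values were seen. The likeness used log2 CPM with a prior count of 2. Marker lists also covered mast cells and basophils (6.34 to 40.2 CPM in small intestine, 4.31 to 14.6 CPM in spleen), innate lymphoid and NK cells (23.7 to 154 CPM and 16.0 to 64.2 CPM), intestinal epithelium (25.5 to 166 CPM and 21.5 to 124 CPM), dendritic cells (13.6 to 47.3 CPM and 8.00 to 27.1 CPM) and B and plasma cells (0.399 to 17.0 CPM and 2.50 to 11.5 CPM), each summed per library with small intestine first.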

Additional observations from a re-analysis of the deposited data

How the results depend on the processing

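Of 240 alternative values for the hairpin, host and tissue differences of the 5 genes, 9 changed sign, 2 of Areg and 7 of the Il1rl1 tissue difference, which was -0.01 and ranged from -0.99 to 0.78. The hairpin log2 fold change of Areg was 0.16 with no covariates, and its host value ranged from -0.737 to 0.0371 over fits that left out 1 library each; the cause was not tested. None of the 5 genes passed for the hairpin or host under any of the 16 alternatives, and none of the 40 CPM values moved beyond its interval with plain totals.

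The count of genes that differed between tissues, 62, was 165 with no filter, 257 with DESeq2 and 40 without both small intestine Asbt+/+ libraries, a setting chosen after seeing the data. It ranged from 12, without the library labelled shMdr1 small intestine Asbt+/+, to 145, without shCD8 small intestine Asbt+/+, when 1 library was left out; the other counts were 22 to 40. The hairpin count of 0 was 9 with no filter and 3 with DESeq2. The host count of 0 was 14 with no filter and 6 with DESeq2, and ranged from 0 to 4 when 1 library was left out, with 4 without shCD8 small intestine Asbt+/+. DESeq2 called 1 gene for tissue by hairpin and 22 for tissue by host, and limma-voom called 3 for hairpin by host. A block for each matched pair gave 54 genes for tissue, 0 for hairpin and 0 for host. No paired analysis by replicate number was possible because each combination has 1 library, so numbers pair nothing. Counting error leaves the 1 count of Il1rl1 in 1 library an interval of 0.0163 to 3.58 CPM.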
